A study of Oryctolagus cuniculus with 8 samples.

Results

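Glucose enters most cells through facilitative transporters and is broken down to pyruvate by the enzymes of glycolysis, which yield ATP without oxygen. When pyruvate is turned into lactate, the NAD+ that the pathway consumes is made again. Pluripotent stem cells are known for a high rate of this route, and many proliferating cells in culture also release lactate. The RNA levels of 6 genes of this pathway were examined: the glucose transporter SLC2A1, also called GLUT1, and the enzymes GPI, PFKP, ALDOA, GAPDH and LDHA. They were chosen by name, as every probe whose RefSeq accession belongs to one of these genes, which gave 18 of the 43603 probes of the array and 6 of the 680 genes with a symbol here. SLC2A1, PFKP and LDHA had 5 probes each, and GPI, ALDOA and GAPDH had 1 probe each. No sequence of a probe or protein was available here, so none is shown.

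RNA of cultured cells of the Dutch rabbit was measured on 8 one-colour arrays, 2 arrays in each of 4 groups. The embryonic stem (ES) group held the lines rdES4 and rdES2-1, cells derived from the embryo that can form every tissue. The induced pluripotent stem (iPS) cells, body cells reprogrammed to a state like that of ES cells, were line iPS-L1 from liver cells at passages 7 and 23 and line iPS-S1 from stomach cells at passages 6 and 22. Passages 7 and 6 formed the early iPS group, and passages 23 and 22 the late one. The somatic group held 1 array of liver cells and 1 of stomach cells. The medium differed with the cell type, a stem cell medium for the ES and iPS lines and a somatic cell medium for liver and stomach cells, so the effects of medium and cell type cannot be told apart. Each tissue was represented by 1 iPS line. The reprogramming factors, the ages of the animals and whether lines came from separate animals are not given in the labels, so p-values measure only the spread between these arrays, which may be partly technical.

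Levels below are log2 signals relative to the 75th percentile of the array, so that 0 is that percentile and a difference of 1 is a doubling. Of all probes, 28841 were tested, and all 18 probes of the 6 genes were well above background on every array, carried no flag and were not saturated. The 75th percentile itself was a signal of 273.8 to 341.5 on ES and iPS arrays but 163.8 for liver cells and 154.8 for stomach cells, which scaling removes. The arrays lay on 3 slides: slide 1 held rdES4, both liver iPS arrays and the liver cells, slide 2 held rdES2-1 and the stomach cells, and slide 3 held both stomach iPS arrays. The pluripotency factor POU5F1 lay between 6.69 and 7.62 in ES and iPS cells and at -3.63 and -3.46 in liver and stomach cells. PODXL, the only other gene of the pluripotency list with a probe, lay between 7.29 and 7.63 in ES and iPS cells. It read 2.34 in liver cells and -4.54 in stomach cells, so the somatic samples were unlike in this marker. For the tissue labels of the somatic cells the markers were mixed. Of 7 hepatocyte genes with a probe, TF, APOE, HP, HPX and RBP4 were above background on all 8 arrays, ES and iPS included. All of these except TF read higher in stomach than in liver cells, and ALB and APOA1 were above background on no array. Of 3 gastric genes, PGC was above background on all 8 arrays, ATP4A on every ES and iPS array and in 1 somatic sample, and ATP4B on no array. Detection of these genes thus did not set the somatic samples apart from ES and iPS cells. The matrix gene DCN, a fibroblast marker, was at 4.44 in liver cells and 5.42 in stomach cells.

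Compared with the somatic cells, iPS cells carried less RNA for 4 of the 6 genes, GPI, ALDOA, GAPDH and LDHA, by 3.2-fold to 6.06-fold. ES cells carried less of the same 4, by 3.23-fold to 6.29-fold. The transporter SLC2A1 differed the other way and was 1.93-fold higher in ES than in somatic cells. PFKP had smaller differences that did not pass the test at its brightest probe. At an adjusted p of 0.05 (limma, Benjamini-Hochberg over all tested probes), 10 of the 18 probes were lower in iPS cells, none was higher and 8 were not called. This has to be read against 66.6% of all tested probes called in iPS against somatic cells, 32.4% lower and 34.3% higher. In ES cells 11 probes were lower, 5 were higher and 2 were not called, against 64.0% of all tested probes called, 29.6% lower and 34.4% higher. Probes of the same gene are repeated readings, not separate results. The median log2 difference over the 6 genes was -1.78 in iPS and -1.76 in ES cells, beside 0.02 and 0.07 over all tested probes. Both comparisons use the same 2 somatic arrays, so they are not independent of each other. In such bulk RNA, fewer cells that express a gene and less RNA per cell cannot be told apart.

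**Figure D1:**
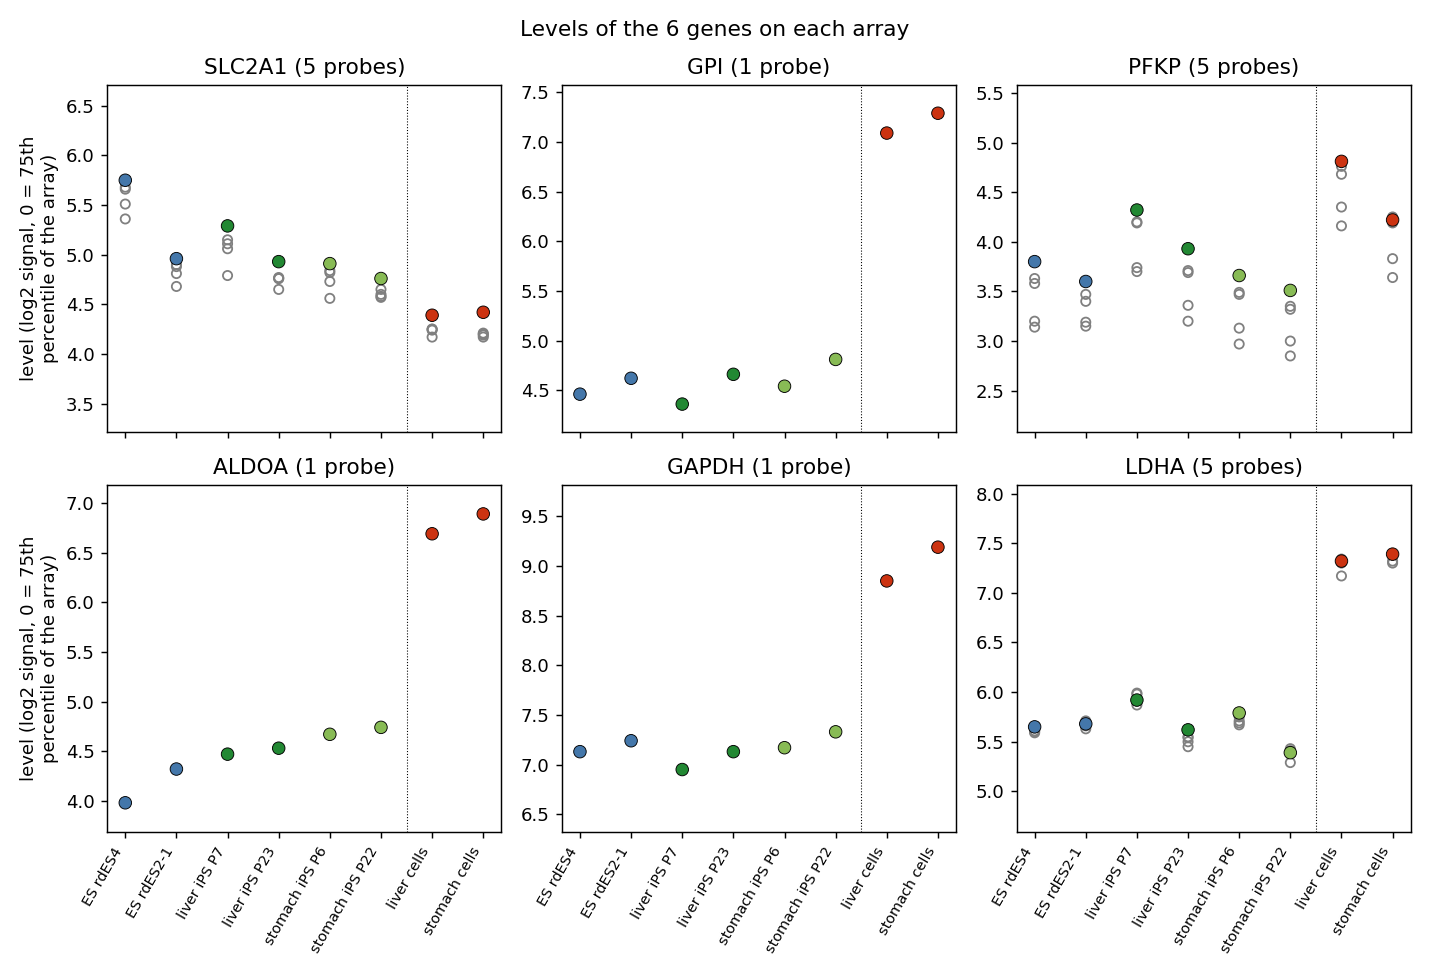
Levels of the 6 genes on each of the 8 arrays, as log2 signal relative to the 75th percentile of the array, with a separate vertical range in each panel. Filled points are the brightest probe of a gene (blue ES, dark green liver iPS, light green stomach iPS, red somatic cells) and open circles are its other probes. GPI, ALDOA, GAPDH and LDHA are higher on both somatic arrays than on the other 6, and SLC2A1 is lower there.

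SLC2A1 brings glucose across the plasma membrane. Its brightest probe read 5.75 in rdES4 and 4.96 in rdES2-1, 5.29 and 4.93 in the liver iPS line at passages 7 and 23, 4.91 and 4.76 in the stomach iPS line at passages 6 and 22, and 4.39 and 4.42 in liver and stomach cells. Both somatic arrays were thus below all 6 ES and iPS arrays, and rdES4 stood above every other array. All 5 probes of the gene showed this separation, which 38.0% of all tested probes also showed. By group the order of the levels was ES (5.35 ± 0.56, SD, n = 2 lines), early iPS (5.10 ± 0.27), late iPS (4.85 ± 0.12) and somatic (4.40 ± 0.02), and the ES, early and late iPS values overlapped in their spread. The difference from somatic cells was 0.95 ± 0.29 (log2, SE) in ES cells, with an adjusted p of 0.0358 (limma). The other 4 probes passed as well, and the 5 differences lay between 0.82 and 1.06. In iPS cells the difference was 0.57 ± 0.29, with a 95% interval from -0.17 to 1.31 and an adjusted p of 0.136, so it was not called. None of the 5 probes was called there. Leaving out rdES4 or rdES2-1 gave the same fit of iPS and somatic cells, with the difference still at 0.57. Whether the brightest probe was called depended on the ES arrays that enter the estimate of the spread. The call in ES cells rested on few arrays: the adjusted p was 0.0825 without rdES4 (difference 0.55), 0.0932 without liver cells and 0.0882 without stomach cells.

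GPI interconverts the phosphates of glucose and fructose, the step after glucose is phosphorylated. GPI read 4.46 and 4.62 in the 2 ES lines, 4.36 and 4.66 in the liver iPS line, 4.54 and 4.81 in the stomach iPS line, and 7.09 and 7.29 in liver and stomach cells. The ES and iPS arrays filled a narrow band well below both somatic arrays, and the groups did not overlap. Both somatic arrays lay above all 6 others at 35.0% of all tested probes too. GPI was 6.06-fold lower in iPS cells (log2 -2.60 ± 0.15, adjusted p = 0.000235) and 6.29-fold lower in ES cells (-2.65 ± 0.15, adjusted p = 0.000226). Only 8.0% of the tested probes lay at or below its iPS difference. Among ES, early iPS and late iPS the means were 4.54 ± 0.11, 4.45 ± 0.13 and 4.73 ± 0.11. The ES and early iPS arrays overlapped, and both late iPS arrays lay above them, a split that was not counted over all tested probes.

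PFKP, the platelet type of phosphofructokinase, adds the second phosphate in the step that commits sugar to glycolysis. RefSeq lists PFKM, the name of the muscle type, among the synonyms of this rabbit record, so which type the 5 probes measure was not settled here. The brightest probe read 3.80 and 3.60 in the ES lines, 4.32 and 3.93 in the liver iPS line, 3.66 and 3.51 in the stomach iPS line, and 4.81 and 4.22 in liver and stomach cells. Liver cells stood highest, but stomach cells lay below the early liver iPS array, so the groups overlapped. The log2 difference from somatic cells was -0.66 ± 0.28 in iPS cells (95% interval -1.39 to 0.07, adjusted p = 0.0928) and -0.81 ± 0.28 in ES cells (adjusted p = 0.0542). The other PFKP probes gave like values on either side of the threshold: 2 of the 5 were called lower in iPS cells, where the 5 differences ran from -0.80 to -0.66, and 3 of the 5 in ES cells, where they ran from -0.97 to -0.74. Without stomach cells the brightest probe was called in both comparisons, at -0.95 (adjusted p = 0.0407) and -1.10 (0.0279), and without liver cells the differences shrank to -0.37 (0.3) and -0.52 (0.172). It was called in both without the early liver iPS array too (adjusted p = 0.0446 and 0.0377), and in ES cells without the late stomach iPS array (0.0475). Its direction turned when no scaling between arrays was applied (0.35 in iPS and 0.06 in ES cells), where the median of all tested probes was 1.03 and 0.94, so that PFKP still lay below that median.

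ALDOA splits fructose bisphosphate into triose phosphates. ALDOA read 3.98 and 4.32 in the ES lines, 4.47 and 4.53 in the liver iPS line, 4.67 and 4.74 in the stomach iPS line, and 6.69 and 6.89 in liver and stomach cells. The somatic arrays stood above all others, as they did at 35.0% of all tested probes. Both ES lines were below all 4 iPS arrays, a split that was not counted over all tested probes. ALDOA was 4.55-fold lower in iPS cells (log2 -2.19 ± 0.18, adjusted p = 0.000544) and 6.22-fold lower in ES cells (-2.64 ± 0.18, adjusted p = 0.000349). The order of its group means was somatic (6.79 ± 0.14), late iPS (4.63 ± 0.15), early iPS (4.57 ± 0.15) and ES (4.15 ± 0.24), with the iPS groups within each other's spread.

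GAPDH oxidises glyceraldehyde phosphate and passes its electrons to NAD+, and it is often used as a reference for equal loading. GAPDH read 7.13 and 7.24 in the ES lines, 6.95 and 7.13 in the liver iPS line, 7.17 and 7.33 in the stomach iPS line, and 8.85 and 9.19 in liver and stomach cells. Both somatic arrays were above all others, with no overlap, as they were at 35.0% of all tested probes. GAPDH was 3.68-fold lower in iPS cells (log2 -1.88 ± 0.18, adjusted p = 0.000742) and 3.57-fold lower in ES cells (-1.84 ± 0.18, adjusted p = 0.000795). The size of this gap moved with the scaling by more than 1.5 times: with quantile normalization it was -1.10 in iPS and -1.08 in ES cells, with the call unchanged.

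LDHA turns pyruvate into lactate at the end of the pathway. Its brightest probe read 5.65 and 5.68 in the ES lines, 5.92 and 5.62 in the liver iPS line, 5.79 and 5.39 in the stomach iPS line, and 7.32 and 7.39 in liver and stomach cells. The somatic arrays agreed closely and lay above all 6 others, as they did at 35.0% of all tested probes. LDHA was 3.2-fold lower in iPS cells (log2 -1.68 ± 0.13, adjusted p = 0.000477) and 3.23-fold lower in ES cells (-1.69 ± 0.13, adjusted p = 0.000472). All 5 probes were called, between -1.71 and -1.64 in iPS and between -1.74 and -1.60 in ES cells. 

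**Figure D2:**
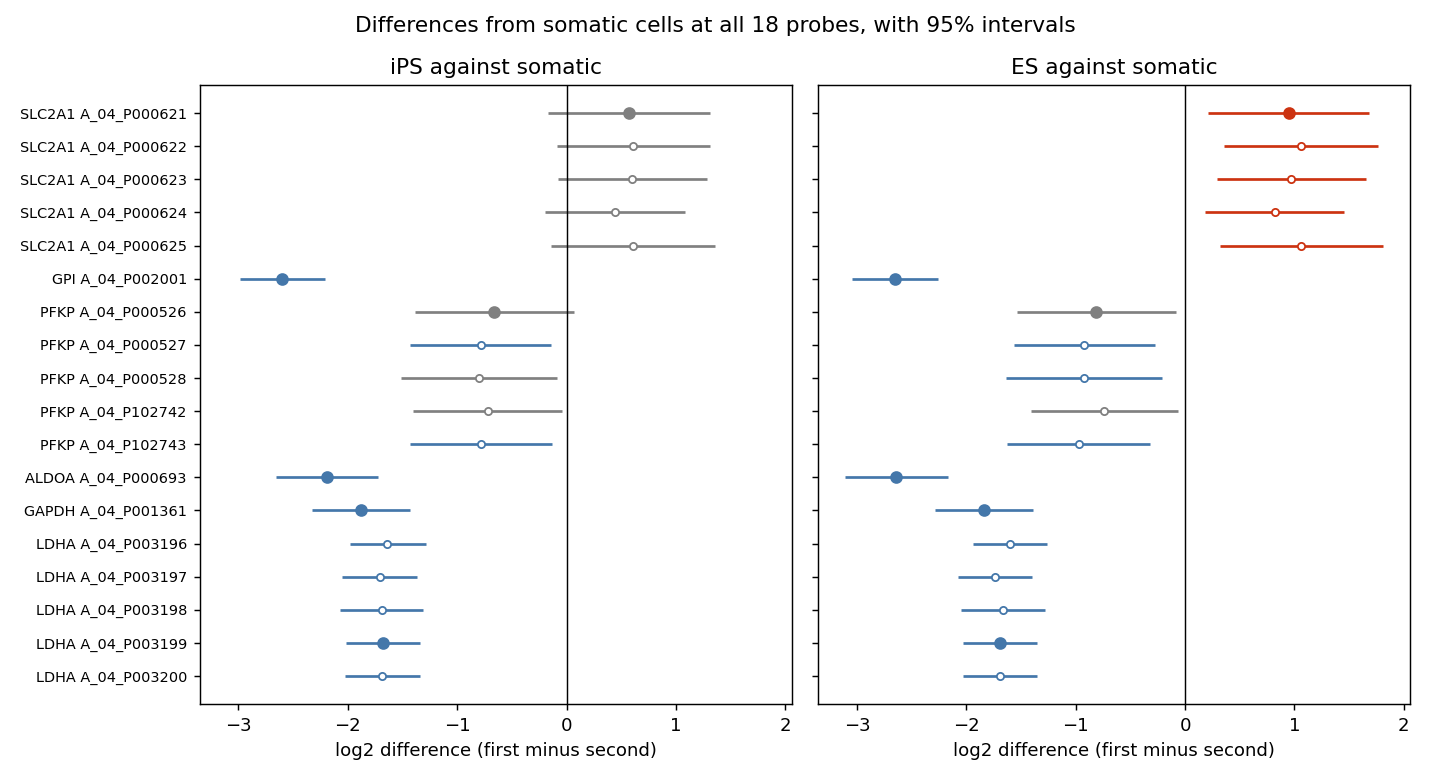
Log2 difference from somatic cells at all 18 probes, in iPS cells (left) and ES cells (right), as points with 95% intervals. Large filled points are the brightest probe of each gene and small open ones the others, with blue for called lower, red for called higher and grey for not called. GPI lies at -2.60 and -2.65, and the 5 SLC2A1 probes lie above 0 in both panels but are called in ES cells only; whether iPS and ES cells differ is tested separately.

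Across the 18 probes, both somatic arrays lay above all ES and iPS arrays at 10 probes, the share for all tested probes being 35.0%, and below them at the 5 SLC2A1 probes. These 10 were the single probes of GPI, ALDOA and GAPDH, all 5 of LDHA and 2 of PFKP, its brightest not among them. Probes of the same gene are repeated readings, so the 10 are not separate results. Within slides the differences kept their size. On slide 1, the liver iPS line minus liver cells was -2.58 for GPI, -2.19 for ALDOA, -1.81 for GAPDH and -1.56 for LDHA. For ES minus somatic cells, slides 1 and 2 gave -2.63 and -2.67 for GPI, -2.70 and -2.57 for ALDOA, -1.72 and -1.95 for GAPDH, and -1.67 and -1.71 for LDHA. With slide as a block, these 4 genes remained called lower in ES cells, with adjusted p between 0.00661 and 0.0107 (limma). Of all 28841 tested probes, 14786 were called in that comparison. Slide 3 carried stomach iPS arrays and nothing else, so the block removed the stomach line from the iPS difference. What remained compared 1 iPS line, from liver, and gave -2.59 for GPI, -2.16 for ALDOA, -1.87 for GAPDH and -1.56 for LDHA. Whether both iPS lines keep their differences under the block was not tested. SLC2A1 was less even: its ES minus somatic difference was 1.35 on slide 1 and 0.54 on slide 2, and its adjusted p with slide as a block was 0.072. Its iPS minus somatic difference on slide 1 was 0.72. PFKP gave -0.68 for the liver iPS line on slide 1, and -1.0 and -0.62 for ES cells on slides 1 and 2.

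Markers of some other cell types moved with these differences, and those of others did not. All 4 fibroblast and mesenchyme genes with a probe here were lower in iPS and in ES cells, and their summed signal was 106 to 198 times the 75th percentile on somatic arrays, 2.08 to 3.14 on iPS and 1.88 to 2.21 on ES arrays. The 4 tested smooth muscle genes were lower too, with the list's sum at 98.0 to 253 on somatic arrays, 30.7 to 49.3 on iPS and 25.3 to 35.8 on ES arrays. DCN was above background on no ES or iPS array. The macrophage and leukocyte list, with 1 of 1 tested gene lower in iPS and in ES cells (CD14), summed to 0.541 to 1.12 on somatic arrays, 0.078 to 0.0984 on iPS and 0.0682 to 0.192 on ES arrays. On the skeletal muscle list, 1 of 2 tested genes was higher in both (TNNC2), and it was above background on neither somatic array. The other, CKM, was not called and pointed down, at -0.77 ± 0.67 in iPS and -1.42 ± 0.67 in ES cells. The list's sum was 0.0984 to 0.149 on somatic arrays, 5.31 to 15.7 on iPS and 5.73 to 6.55 on ES arrays. On ES and iPS arrays nearly all of it came from TNNC2. In iPS against somatic cells, the hepatocyte list had 1 gene higher (TF), 1 lower (RBP4) and 3 not called. The gastric list had 1 higher and 1 not called, and the erythroid list 1 lower and 1 not called. The 1 epithelial gene with a probe was not called. In ES against somatic cells the 2 tested gastric genes were higher, and the hepatocyte, erythroid and epithelial counts were unchanged. The part of cell type in the differences of the 6 genes was not tested.

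Few other genes of the pathway had a named probe. Of the 33 symbols on the list of glycolysis enzymes, 7 were tested, and the 2 that are not among the 6 genes were not called in iPS against somatic cells: BPGM, which makes the bisphosphoglycerate that regulates haemoglobin, at 0.77 ± 0.35 (adjusted p = 0.107), and the muscle enolase ENO3 at 0.57 ± 0.51. Of the glucose and lactate transporters other than SLC2A1, 3 of 4 were lower in iPS cells and none higher. BSG, the partner protein that carries lactate transporters to the membrane, was lower at -2.93 ± 0.15 (adjusted p = 0.000182). The insulin-responsive transporter SLC2A4 had -2.11 ± 0.32 (adjusted p = 0.00346) and the sodium-coupled SLC5A2 -1.39 ± 0.23 (0.00459), while SLC5A1 was not called at -0.61. In ES cells the same counts held, 3 lower and 1 not called. The 2 SLC2 transporters measured here, SLC2A1 and SLC2A4, thus had differences of opposite sign, of which that of SLC2A1 in iPS cells did not pass the test.

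On the list of gluconeogenesis and glycogen metabolism, 7 genes were tested, of which 4 were lower, 1 was higher and 2 were not called in iPS cells, with the same counts in ES cells. Glycogen synthase GYS1 (-3.68 ± 0.13, adjusted p = 9.42e-05) and phosphoglucomutase PGM1 (-3.42 ± 0.15, 0.000123), which links glycogen to the glucose phosphate that GPI uses, were lower by more than any of the 6 genes. The phosphorylase kinase subunit PHKA2 was higher by 2.37 ± 0.45 (0.00718). On the list of mitochondrial energy genes, the outer membrane channel VDAC1 was higher in iPS cells (0.90 ± 0.22, adjusted p = 0.0173) and 3 of 4 were not called, VDAC2 at 0.41, VDAC3 at 0.35 and the ATP/ADP carrier SLC25A4 at 0.30. None of these 4 was called in ES cells. The lists of the pentose phosphate pathway and of pyruvate and citric acid cycle enzymes had no named probe.

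On the hypoxia list, 2 of 3 tested genes were lower in iPS cells and 1 was not called. HIF1A, the oxygen-sensitive factor known to raise SLC2A1 and LDHA, read 0.95 in liver and 2.44 in stomach cells and 0.35 to 0.90 in ES and iPS cells, a difference of -1.14 ± 0.49 that was not called (adjusted p = 0.0932). Its partner ARNT was lower (-0.78 ± 0.14, adjusted p = 0.00574). The carbonic anhydrase CA12 was not well above background on any ES or iPS array and was lower by at least 2.35-fold in iPS than in somatic cells. Such a bound sets the bright group's mean against the higher of the dim probe's own signal and the lowest signal well above background on each array. Of the creatine kinases, which store energy as creatine phosphate, the mitochondrial CKMT2 was at least 24.6-fold higher in iPS cells and not well above background in either somatic sample, and CKB (0.27 ± 0.30) and CKM (-0.77 ± 0.67) were not called.

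A list of 4 genes often used as references was set beside GAPDH. In iPS against somatic cells, HPRT1 (1.17 ± 0.15, adjusted p = 0.00212) and PPIA (0.53 ± 0.14, 0.0238) were higher, and ACTB (-0.86 ± 0.14, 0.00395) and EEF1A1 (-0.89 ± 0.13, 0.00294) were lower. Each differed by less than the -1.88 of GAPDH. In relation to GAPDH on the same array, all 4 were therefore higher in iPS than in somatic cells, by 0.99 for EEF1A1, 1.02 for ACTB, 2.41 for PPIA and 3.05 for HPRT1.

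Taking GAPDH as the reference turned the sign of the PFKP difference, and that of LDHA to small positive values. SLC2A1 minus GAPDH ran from -2.57 to -1.39 on ES and iPS arrays and was -4.46 and -4.77 in liver and stomach cells, a difference of 2.45 in iPS and 2.78 in ES cells. PFKP minus GAPDH ran from -3.83 to -2.62 in ES and iPS cells against -4.05 and -4.97 in liver and stomach cells, a difference of 1.22 in iPS and 1.02 in ES cells. Both genes thus separated without overlap on this scale, and so did all 4 reference genes. GAPDH itself differed by -1.88 in iPS and -1.84 in ES cells, which shifts the difference of every gene upwards here. The share of all tested probes that separate on this scale was not counted. GPI kept its direction (-0.72 in iPS and -0.82 in ES cells), as did ALDOA (-0.31 and -0.80), and with quantile normalization these became -1.19 and -1.20 for GPI and -0.82 and -1.23 for ALDOA. LDHA kept close to GAPDH: its differences of 0.20 and 0.15 were within the range of the arrays, which overlapped, and they became -0.25 and -0.20 with quantile normalization. These values have no test. Quantile normalization also took PFKP to 0.48 and 0.35 and SLC2A1 to 1.74 and 2.17.

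**Figure D3:**
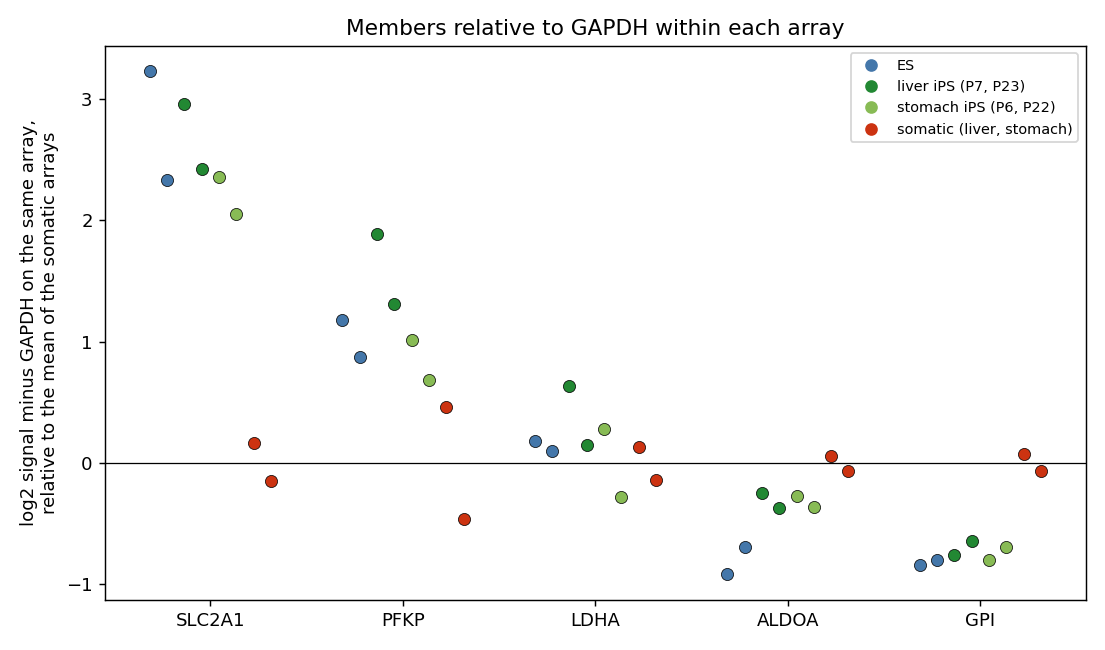
Log2 signal of 5 genes minus that of GAPDH on the same array, with the mean of both somatic arrays set to 0; each point is 1 array, in the order ES, liver iPS, stomach iPS, somatic within a gene. SLC2A1 and PFKP lie above the somatic arrays on every ES and iPS array, ALDOA and GPI below them, and LDHA overlaps them.

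iPS and ES cells were compared to see how near the reprogrammed lines came to embryo-derived cells. None of the 6 genes and none of the 18 probes was called, with 0.0% of all tested probes called by limma in this comparison. At an unadjusted p under 0.05 there were 0 of the 18 probes and 2141 of all tested probes. ALDOA was the gene whose 4 iPS arrays (4.47 to 4.74) all lay above both ES lines (3.98 and 4.32), a difference of 0.45 with a 95% interval from -0.02 to 0.92 and an adjusted p of 0.688. How many of all tested probes separate these arrays in the same way was not counted. Without rdES4 its difference was 0.28. SLC2A1 had -0.38, with an interval from -1.12 to 0.36, which became 0.02 without rdES4 and -0.77 without rdES2-1. The intervals of the other genes were -0.33 to 0.45 for GPI, -0.58 to 0.88 for PFKP, -0.49 to 0.41 for GAPDH and -0.33 to 0.35 for LDHA. With 2 lines a group, these intervals leave room for differences in either direction, and the result does not show that the groups are alike.

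Late and early iPS cells were compared to see what further culture changed. None of the 6 genes was called, with 0.0277% of all tested probes called, 8 in number, and 0 called with the iPS line as a replicate block. With any 1 of the 8 arrays left out, 0 or 1 of the tested probes was called. The brightest LDHA probe read 5.92 at the early and 5.62 at the late passage of the liver line, and 5.79 and 5.39 in the stomach line. The late array was the lower one in both lines. The difference was -0.35 ± 0.13, with a 95% interval from -0.68 to -0.02, an unadjusted p of 0.0402 and an adjusted p of 0.58 (limma; 0.321 with the replicate block), so it failed the correction. All 5 LDHA probes, which share their RNA, had an unadjusted p under 0.05, between 0.0299 and 0.0425, and no other probe of the 6 genes did, beside 2411 of all tested probes.

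By line, late minus early differences were -0.36 in the liver and -0.15 in the stomach line for SLC2A1, and -0.40 and -0.16 for PFKP. They had the other sign for GPI, at 0.30 and 0.26, for GAPDH, at 0.18 and 0.16, and for ALDOA, at 0.06 and 0.07. The transporter, PFKP and LDHA were lower and GPI, ALDOA and GAPDH higher at the late passage in both lines, though none passed the test. Of the 18 probes, 14 were lower at the late passage in both lines and 3 were higher in both, beside 35.8% and 29.3% of all tested probes. The 14 are repeated readings of SLC2A1, PFKP and LDHA, so they are not separate results. The remaining probe, of SLC2A1, differed in sign between the lines.

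The tissue of origin was compared in the cells and in the lines made from them, with 1 array for each, so there is no test. All 5 PFKP probes were higher in liver than in stomach material in the cells, the early and the late iPS lines. For the brightest probe the liver minus stomach difference was 0.58 in the cells, 0.66 in early and 0.42 in late iPS cells, beside 0.21 between the 2 ES lines. It stayed between 0.37 and 0.91 with quantile normalization, the normexp background model, no scaling, the authors' values and the mean of all probes. Liver was the higher in all 3 pairs at 8 of the 18 probes, the 5 of PFKP and 3 of SLC2A1, beside 15.8% of all tested probes. The 8 are repeated readings of PFKP and SLC2A1, so they are not separate results. At the brightest SLC2A1 probe the differences were -0.03, 0.38 and 0.16, all smaller than the 0.79 between the ES lines.

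Stomach was the higher in all 3 pairs at 3 probes, those of GPI, ALDOA and GAPDH, beside 16.5% of all tested probes. The liver minus stomach differences in cells, early and late iPS were -0.20, -0.18 and -0.15 for GPI, -0.20, -0.21 and -0.21 for ALDOA and -0.34, -0.22 and -0.20 for GAPDH. The ES lines differed by -0.16, -0.34 and -0.11 in these genes. These small values moved with the scaling: without it the late iPS difference was 0.05 for GPI, -0.01 for ALDOA and 0 for GAPDH. LDHA gave -0.07, 0.13 and 0.23, with no common sign. Both iPS arrays of a line lay on 1 slide and the lines on different slides, so line, tissue and slide cannot be told apart.

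**Figure D4:**
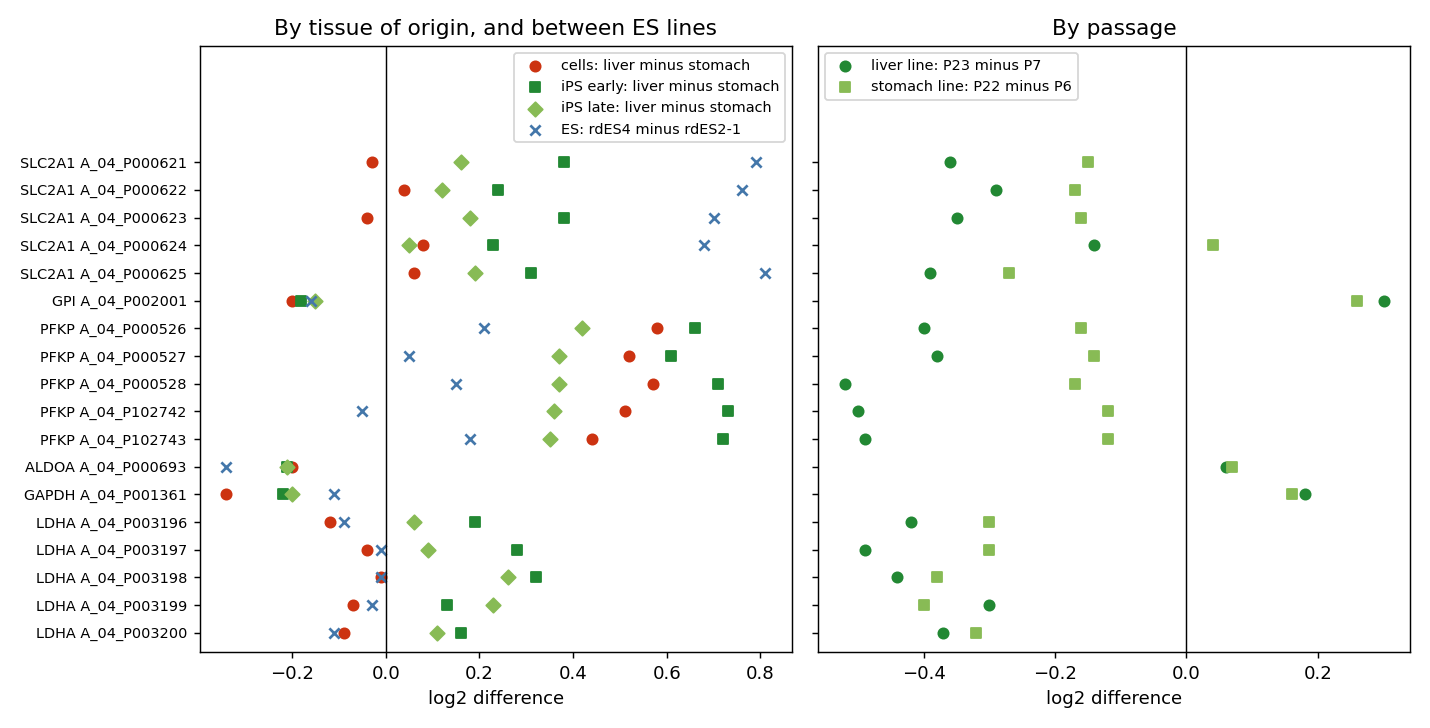
Log2 differences at each of the 18 probes by tissue of origin (left; liver minus stomach in cells, early iPS and late iPS, with rdES4 minus rdES2-1 as crosses) and by passage in each iPS line (right). The 5 PFKP probes lie right of 0 for all 3 liver minus stomach pairs, and the 5 LDHA probes lie left of 0 for both lines by passage.

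The genes most like each of the 6 were taken from 503 other named genes, by the root mean square log2 distance between their levels over the 8 arrays after each was centred on its own mean. GPI lay nearest to the lysosomal membrane protein gene CD63 (0.10) and the autophagy gene GABARAP (0.14), and ALDOA to GABARAP (0.19) and the calpain inhibitor gene CAST (0.23). GAPDH lay nearest to the reductase gene DHRS4 (0.13) and NHERF2 (0.17), and LDHA to ANXA11 (0.13) and DHRS4 (0.14). PFKP was nearest to SCP2 (0.15) and TMED10 (0.16). For SLC2A1 the distance to the nucleoside transporter gene SLC29A2 was 0.18. Among themselves, GPI and ALDOA were 0.22 apart and GAPDH and LDHA 0.25, while PFKP was 0.48 from its nearest member LDHA and SLC2A1 0.69 from its nearest, PFKP. The arrays shared scaling and the large gap between somatic and other cells, so these distances only describe these 8 arrays.

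The scaling matters most where cell types differ in overall signal. Of the tested probes called in iPS against somatic cells, 51.4% were higher, and without scaling 82.5% were. In ES against somatic cells these shares were 53.7% and 81.5%. Under all 4 scalings and without any, GPI, ALDOA, GAPDH and LDHA were called lower in both comparisons. Without scaling their log2 differences were smaller by over 1.5 times in iPS cells, -1.59 for GPI, -1.18 for ALDOA, -0.87 for GAPDH and -0.67 for LDHA, beside a median of 1.03 over all tested probes. In ES cells they were -1.78, -1.76, -0.96 and -0.82 in the same order, beside a median of 0.94. SLC2A1 was above 0 in every case, and without scaling it was called in iPS cells too, at 1.58 with an adjusted p of 0.00283.

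**Figure D5:**
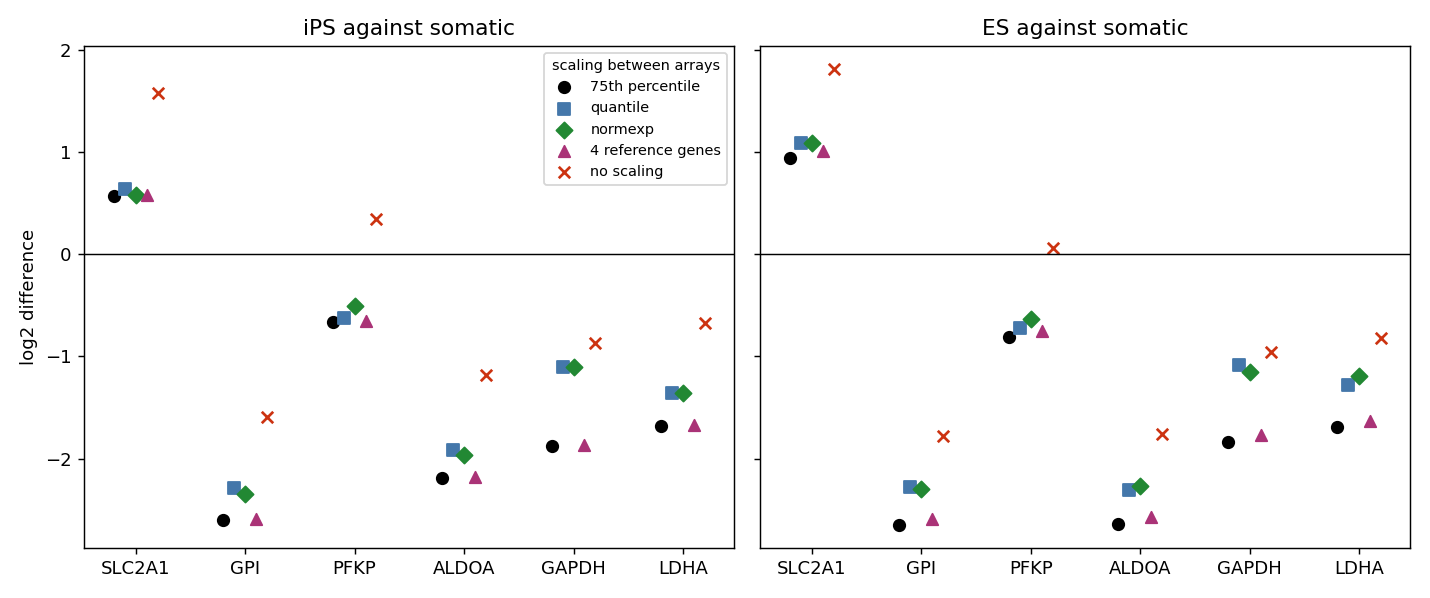
Log2 difference from somatic cells for the brightest probe of each gene under 4 scalings between arrays and without scaling (crosses), in iPS cells (left) and ES cells (right). GPI, ALDOA, GAPDH and LDHA lie below 0 throughout, SLC2A1 above 0, and PFKP turns from below to above 0 without scaling.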

How the data were processed

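The data were Cy3 one-colour Agilent arrays of total RNA, 1 for each of 8 samples, grouped by the labels. Per the file headers, the deposited spot intensities were written by Agilent Feature Extraction 10.5.1.1 after background subtraction and were not scaled between arrays. The authors' value table, on a log2 scale, matched scaled log2 signals centred per probe, with a correlation of 1 on every array and column medians from -0.042 to 0.342. Array number limits precision.

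From the intensities, log2 processed signal minus the log2 75th percentile of each array was computed here. Probes well above background on both arrays of at least 1 group and without outlier flags on any array were tested (28841; 38 were left out for flags). limma 3.58.1 in R 4.3.3 was fitted (two-sided, Benjamini-Hochberg, threshold 0.05; checked on simulated data). Each iPS line entered as the mean of its 2 arrays, giving 6 units in 3 groups; late against early used all 8 arrays in 4 groups. All groups share 1 estimate of the spread. Early and late arrays with the same number are the same line, per the labels; their liver minus stomach differences correlated at 0.22 over tested probes.

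Symbols came from RefSeq (mOryCun1.1) by accession: 1933 of 43603 probes, 680 genes. The brightest probe stood for a gene. Genes were named by rule: all 6 genes, up to 4 genes a pathway list by size of the iPS difference, the reference genes, and the 2 nearest genes to each. Of the genes this rule names, 2 are not reported here. The members and the 19 lists (273 symbols, 63 with a named probe) were chosen with earlier results of these data known. Alternatives were other scalings, no filter, blocks, each array left out and averaged probes. The normexp alternative used the median spot signal with offset 50, then quantile normalization.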

Additional observations from a re-analysis of the deposited data

How the results depend on the processing

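GPI, ALDOA, GAPDH and LDHA were called lower in iPS and in ES cells than in somatic cells under every alternative run, with log2 differences between -2.80 and -0.67. With slide as a block, the stomach iPS line did not enter the iPS differences. The number of the 6 genes called was 4 to 5 in iPS and 4 to 6 in ES cells with each array left out in turn, and 0 in iPS against ES and in late against early. PFKP reversed without scaling, to 0.35 in iPS and 0.06 in ES cells, where the cause was the shift of all probes by construction. In iPS against somatic cells, the replicate block by tissue of origin gave PFKP -0.66 with an adjusted p of 0.0437; the numbers share only a tissue there (correlations of 0.02 and 0.01), and the replicate block changed no other call of the 6 genes. The ES lines have no tissue of origin, so the block could not be fitted for them. In ES cells PFKP was called with the mean of its probes (-0.87, adjusted p = 0.0347) and with the iPS line as a random block (0.0475).

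In iPS against ES cells, values near 0 changed sign: GPI with quantile normalization (-0.01) and normexp (-0.05), GAPDH with normexp (0.05) and without scaling (0.10), and LDHA with quantile normalization (-0.08), normexp (-0.17), reference gene scaling (-0.04) and the probe mean (0). With each array left out, SLC2A1 ranged from -0.77 to 0.02, GPI from -0.02 to 0.14, GAPDH from -0.10 to 0.01 and LDHA from -0.09 to 0.11. By passage PFKP ranged from -0.61 to 0.05 and ALDOA from -0.04 to 0.17. LDHA minus GAPDH reversed with quantile normalization (-0.25 in iPS, -0.20 in ES cells) and normexp (-0.26 and -0.04); the cause was not tested.

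Over all tested probes, iPS against somatic cells had 9925 calls with slide as a block instead of 19212. iPS against ES had 2 without scaling and 6 with the random block instead of 0. Late against early had 1 with normexp, 4 with averaged probes, 0 without the filter on dim probes, with the slide or with the replicate block, and 0 to 1 with an array left out, instead of 8.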
